A study of Homo sapiens with 6 samples.

Results

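The MYC, MAX and MXD network comprised 10 genes of the 35474 listed in the count table, namely MYC, MYCN, MYCL, MAX, MXD1, MXD3, MXD4, MXI1, MNT and MLX, chosen by gene symbol as a family of transcription factors. All 10 were listed, and 9 had enough counts to be tested. The cells were A549, a human lung adenocarcinoma line. RNA sequencing compared 3 siBAP18 cultures, transfected with siRNA against BAP18, with 3 siCtrl cultures, transfected with a non-specific siRNA, each collected 48 h after transfection. BAP18, encoded by C17orf49, is a chromatin protein that binds trimethylated lysine on histone H3 and belongs to remodeling and methyltransferase complexes. The study examined BAP18 together with β-catenin, and MYC is a textbook target of the Wnt/β-catenin pathway. By qPCR and Western blot, the study reported lower c-myc mRNA and protein with BAP18 siRNA in A549 cells under LiCl stimulation. Its methods for RNA sequencing name no LiCl, so the MYC values below are not a repeat of that experiment. Several siRNAs against BAP18 were designed, and the one used for sequencing is not given in the sources used here, so the siBAP18 group stands for a transient knockdown in a single cell line.

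Proteins of this family bind DNA as pairs through a basic helix-loop-helix leucine zipper domain. MAX is the obligate partner, and MYC paired with MAX activates genes of ribosome production, nucleotide synthesis and growth. The MXD proteins, MXI1 and MNT compete for MAX and recruit SIN3 and histone deacetylases to repress overlapping sites. MLX forms a parallel branch, pairing with the glucose-sensing factors MLXIP (MondoA) and MLXIPL (ChREBP) and with some MXD proteins and MNT. Their common DNA motif is the E-box CACGTG, and MLX pairs read a motif made of a pair of E-box-like sites called a carbohydrate response element.

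The network contains E-boxes in its own promoters. RefSeq promoter sequences (GRCh38.p14, 250 bases before to 50 after each start) were matched for 9 of the 10 members, and the palindromic E-box CACGTG was present in 3 of them, MXD4, MNT and MLX. Over all promoters of this length 7.26% held the motif, or 8.77% of 27305 genes with a promoter. The paired motif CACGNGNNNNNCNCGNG, searched on both strands, was present in 0.501% of promoters. It was found in the TXNIP promoter, a standard target of MLX pairs, and in a second MXI1 promoter 70 bases upstream of that start, and an E-box was present in the promoter of ARRDC4, another target of MLX pairs. A promoter of PKLR, the remaining MLX target listed, held both the paired motif, 126 bases upstream, and an E-box, 197 bases upstream. The 5 promoters below are those of the 3 members with an E-box and of the 2 MLX targets that were tested, described later. The MXI1 and PKLR promoters that held a motif are not printed. Each runs 5′ to 3′ on the strand of its gene, and capitals mark the E-box or, in TXNIP, the paired motif.
MXD4 (chr4:2262060-2262359, minus strand, motif 238 bases upstream): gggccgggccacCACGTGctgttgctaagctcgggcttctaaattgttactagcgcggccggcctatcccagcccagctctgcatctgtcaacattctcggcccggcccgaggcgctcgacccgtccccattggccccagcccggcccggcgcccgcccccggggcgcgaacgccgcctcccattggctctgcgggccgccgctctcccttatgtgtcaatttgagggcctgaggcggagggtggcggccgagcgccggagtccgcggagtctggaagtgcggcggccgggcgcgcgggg
MNT (chr17:2401011-2401310, minus strand, motif 193 bases upstream): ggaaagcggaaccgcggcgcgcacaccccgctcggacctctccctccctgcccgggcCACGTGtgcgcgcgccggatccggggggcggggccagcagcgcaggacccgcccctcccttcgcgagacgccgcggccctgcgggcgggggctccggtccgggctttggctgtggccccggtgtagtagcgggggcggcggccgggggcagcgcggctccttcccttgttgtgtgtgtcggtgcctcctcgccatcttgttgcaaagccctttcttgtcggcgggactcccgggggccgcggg
MLX (chr17:42566850-42567149, plus strand, motif 50 bases upstream): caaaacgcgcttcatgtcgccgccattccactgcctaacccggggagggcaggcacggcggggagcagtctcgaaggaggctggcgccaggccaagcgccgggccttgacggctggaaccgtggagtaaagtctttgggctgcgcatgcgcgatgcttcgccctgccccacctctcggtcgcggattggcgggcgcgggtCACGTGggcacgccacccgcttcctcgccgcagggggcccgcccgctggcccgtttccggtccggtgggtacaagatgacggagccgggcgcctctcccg
TXNIP (chr1:145996530-145996829, minus strand, motif 88 bases upstream): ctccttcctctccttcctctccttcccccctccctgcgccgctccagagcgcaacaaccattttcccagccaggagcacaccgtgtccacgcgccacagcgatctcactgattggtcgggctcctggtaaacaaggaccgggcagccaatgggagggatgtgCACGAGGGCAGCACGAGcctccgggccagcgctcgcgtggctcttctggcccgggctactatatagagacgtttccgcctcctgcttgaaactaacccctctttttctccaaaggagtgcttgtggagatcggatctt
ARRDC4 (chr15:97960453-97960752, plus strand, motif 210 bases upstream): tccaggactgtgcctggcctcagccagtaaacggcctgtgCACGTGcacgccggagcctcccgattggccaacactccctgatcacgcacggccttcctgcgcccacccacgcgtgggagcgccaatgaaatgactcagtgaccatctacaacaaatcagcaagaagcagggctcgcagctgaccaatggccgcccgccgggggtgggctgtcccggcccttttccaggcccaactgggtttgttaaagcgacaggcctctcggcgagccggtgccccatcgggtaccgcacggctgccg
A match describes the letters of the window and does not show that a factor was bound.

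Total counts ranged from 46035635 to 53657450 in siCtrl and from 42094524 to 56548620 in siBAP18. The knockdown was visible in the listed counts of C17orf49. Its mean was 15.1 CPM (counts scaled to the library total) in siCtrl and 2.41 CPM in siBAP18. The log2 fold change was −2.65 (SE 0.111, adjusted p = 7.31e-16 by edgeR's quasi-likelihood test). C17orf49 shares 1466 of its 2628 listed bases with MIR497HG on the opposite strand, which also fell (log2 fold change −2.57, edgeR adjusted p = 3.92e-13). On the same strand, RNASEK-C17orf49 shares 1163 bases with C17orf49 and fell by less (−0.24, edgeR adjusted p = 0.0138). The part of shared reads in the C17orf49 values was not tested. Of 20776 genes tested, 10305 passed an adjusted p under 0.05 (49.6%), with 25.1% lower and 24.5% higher in siBAP18, and 8.46% also had an absolute log2 fold change over 1. The values of the groups did not overlap for 56.6% of genes. All 6 proliferation markers fell, including MKI67 (log2 fold change −1.20, edgeR adjusted p = 6.89e-13), and their summed level ran from 1043 to 1064 CPM in siCtrl and from 496.9 to 532.6 CPM in siBAP18. The 8 A549 epithelial markers were all expressed and 7 of them fell, with summed levels from 23641 to 25143 CPM in siCtrl and from 16749 to 20416 CPM in siBAP18. Of 9 markers of other cells, 7 were listed and 5 tested, of which 2 rose and 2 fell. CD68, a lysosomal glycoprotein of macrophages, rose from a mean of 66.2 to 136 CPM, and the endothelial gene CDH5 rose from 0.286 to 0.619 CPM (log2 fold change 1.10, edgeR adjusted p = 0.0148). PECAM1 and COL1A1 fell. The 6 markers other than CD68 summed to between 13.0 and 14.2 CPM in siCtrl and between 9.99 and 11.2 CPM in siBAP18, with SFTPC and HBB near 0. Mitochondrial genes took 6.86% to 7.43% of the counts in siCtrl and 5.27% to 6.14% in siBAP18. The part of these differences in the results below was not tested, and fewer cells of a type cannot be told apart from less RNA per cell in bulk libraries.

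Among the 9 members tested, 4 rose after BAP18 knockdown (MAX, MXD1, MXD3 and MXD4) and 2 fell (MYCL and MXI1), while MYC, MNT and MLX did not pass the test. The members that rose were 44.4% of those tested beside 24.5% of all genes, and those that fell were 22.2% beside 25.1%. The groups did not overlap for 7 of 9 members, beside 56.6% of all genes tested. The median log2 fold change of the members was 0.09, against 0.0010 over all genes tested. MYCL alone had an absolute log2 fold change over 1. The differences of most members were small in these libraries, where about every second gene passed the same test.

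**Figure D1:**
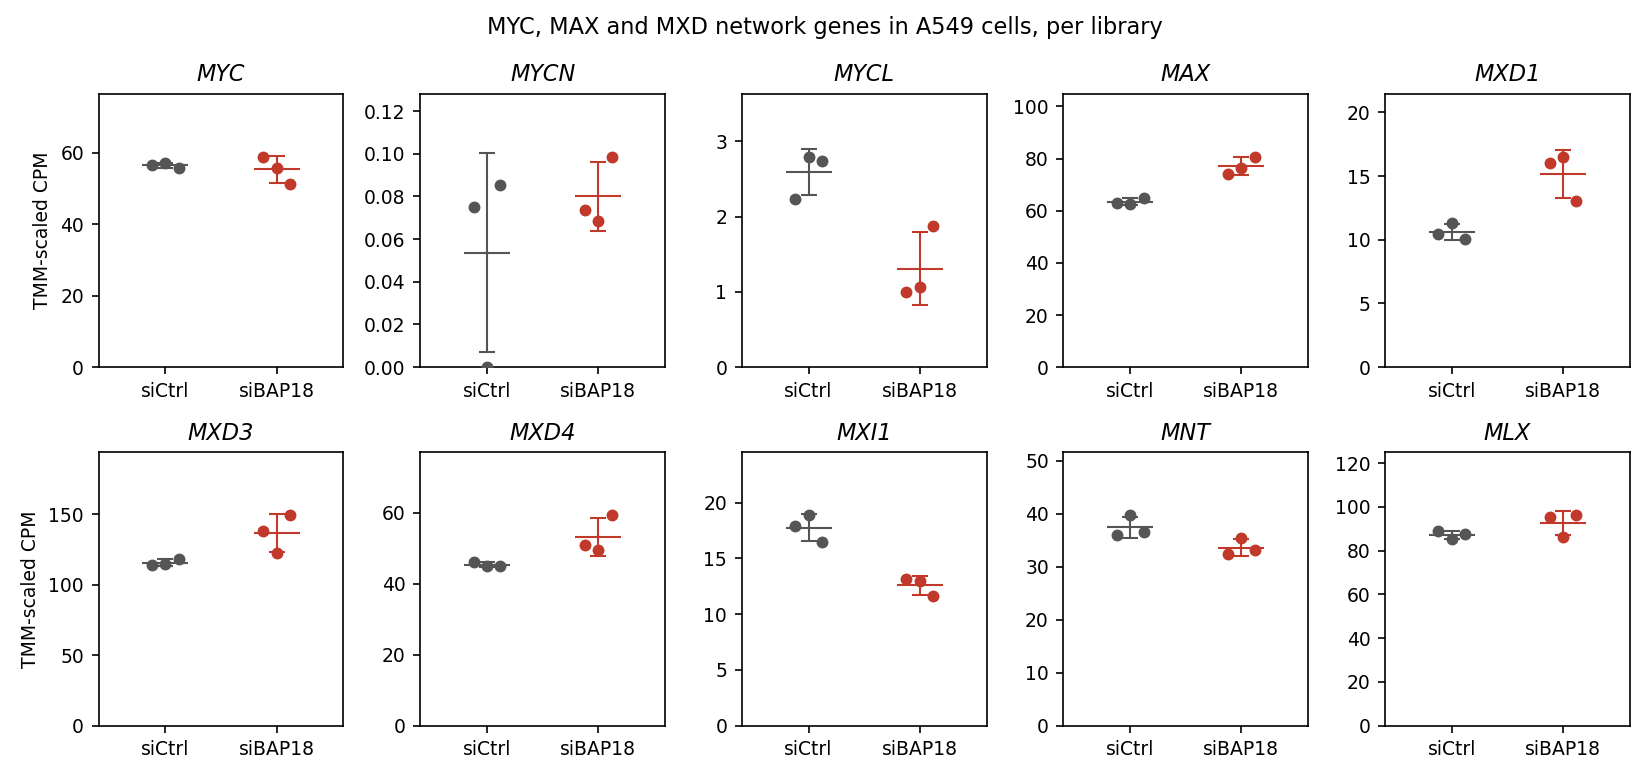
TMM-scaled CPM (vertical axes, each from 0) of the 10 network genes in the 3 siCtrl and 3 siBAP18 libraries. Points are libraries, and bars are the mean and SD (n = 3). MXI1 ran from 16.5 to 18.9 CPM in siCtrl and from 11.6 to 13.1 CPM in siBAP18, and the MYC values of the groups overlapped.

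MYC, the broadly acting growth regulator of the family, lies on chromosome 8 and shares no exon bases with another listed gene. Its level, as CPM scaled by the trimmed mean of M-values (TMM), was 56.4, 57.2 and 55.6 in siCtrl and 58.9, 55.8 and 51.3 in siBAP18, always in the order of replicates 1, 2 and 3. The siBAP18 values lay on both sides of the siCtrl values, with a mean of 55.3 ± 3.79 (SD, n = 3) against 56.4 ± 0.808. The log2 fold change was −0.03 (95% interval −0.17 to 0.11, edgeR adjusted p = 0.771), and missing the threshold does not show that the levels were equal. With an offset for the GC content and length of genes, the estimate was −0.19 (edgeR adjusted p = 0.0145) and passed the test.

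MYCL, a paralog of MYC first known from small cell lung cancer, lies at chr1:39895426-39902256 on the minus strand. Its counts were 119, 130 and 128 in siCtrl and 54, 62 and 76 in siBAP18, or 2.24, 2.80 and 2.74 CPM against 0.992, 1.06 and 1.87 CPM. Every siBAP18 value was below every siCtrl value, and replicate 3 was the highest of the knockdown group. MYCL fell by 1.01 on the log2 scale (SE 0.211, edgeR adjusted p = 0.000263), from a level far below that of MYC. It shares 226 bases with the opposite-strand gene RP1-118J21.5, for which 39, 51 and 37 counts were listed in siCtrl and 19, 25 and 32 in siBAP18.

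MYCN, the paralog best known from neuroblastoma, was close to absent. It had 4, 0 and 4 counts in siCtrl and 4 counts in each siBAP18 library, too few to be tested. A count of 0 allows up to 3 counts in that library if each count is a separate fragment, which is not known here. No fold change is given.

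MAX, the common partner, lies at chr14:65006174-65102695 on the minus strand. It was measured at 63.0, 62.6 and 64.9 CPM in siCtrl and at 73.9, 76.2 and 80.7 CPM in siBAP18. All 3 knockdown libraries were above the controls. MAX rose 1.21-fold (log2 fold change 0.28, SE 0.0663, edgeR adjusted p = 0.0011), and it passed the test under all 19 alternatives tried, with estimates from 0.19 to 0.31. The opposite-strand gene RP11-840I19.3, which shares 184 of the 4430 bases listed for MAX, also rose (log2 fold change 0.23, edgeR adjusted p = 0.0218).

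The antagonists moved in different directions. MXD1, which is induced as cells leave the cycle and differentiate, lies at chr2:69897688-69942945 and was at 10.5, 11.3 and 10.1 CPM in siCtrl and 16.0, 16.5 and 13.0 CPM in siBAP18. The groups did not overlap, and siBAP18 replicate 3 was the lowest of its group. MXD1 rose 1.44-fold (log2 fold change 0.52, SE 0.0944, edgeR adjusted p = 5.26e-05). It shares 237 of 6351 bases with SNRNP27 on the same strand, whose log2 fold change was −0.03 (edgeR adjusted p = 0.725). Even coverage of SNRNP27 would place 326, 258 and 237 of its reads in the shared bases in siCtrl and 303, 311 and 220 in siBAP18. The counts listed for MXD1 were 557, 525 and 472 in siCtrl and 871, 965 and 528 in siBAP18. The part of SNRNP27 reads in the MXD1 values was not tested.

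MXI1, also called MXD2, lies at chr10:110207605-110287365 and showed the opposite direction. Its values were 17.9, 18.9 and 16.5 CPM in siCtrl and 13.1, 12.9 and 11.6 CPM in siBAP18, again without overlap. MXI1 fell by 0.49 on the log2 scale (SE 0.0842, 95% interval −0.67 to −0.32, edgeR adjusted p = 2.40e-05), to 0.71 of the control level. MXI1 and MXD1 passed the test in opposite directions under each of the 19 alternatives. Per length, the ratio of MXD1 to MXI1 was 0.425, 0.434 and 0.444 in siCtrl and 0.884, 0.926 and 0.811 in siBAP18. The listed level of MXD1, which includes the bases shared with SNRNP27, thus approached that of MXI1 without reaching it.

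MXD4, an antagonist found in many differentiated tissues and one of the members with an E-box in its promoter, lies at chr4:2247432-2262294 and shares no exon bases with a listed gene. It was at 46.2, 45.2 and 45.0 CPM in siCtrl and 50.9, 49.4 and 59.4 CPM in siBAP18. All knockdown values were above the controls, with replicate 3 apart from the other two. MXD4 rose 1.17-fold (log2 fold change 0.23, SE 0.0736, edgeR adjusted p = 0.0127). The call was lost without siCtrl replicate 2 (log2 fold change 0.22, edgeR adjusted p = 0.0575) and without siCtrl replicate 3 (0.22, adjusted p = 0.0578).

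MXD3, expressed during the S phase of dividing cells, lies at chr5:177301461-177312757 and had the highest listed level of the family. It was at 114.2, 114.5 and 118.5 CPM in siCtrl and at 138.4, 122.3 and 149.5 CPM in siBAP18, without overlap. The listed counts rose 1.18-fold (log2 fold change 0.24, SE 0.072, edgeR adjusted p = 0.00724), and with an offset for GC content and length the estimate was 0.12 (edgeR adjusted p = 0.0559). This gene shares 1158 of its 5154 listed bases (22.5%) with PRELID1 on the opposite strand, a mitochondrial lipid transfer gene that also rose (log2 fold change 0.39, edgeR adjusted p = 8.26e-05). It shares 926 further bases with RAB24 on the same strand (log2 fold change 0.17, edgeR adjusted p = 0.117).

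The counts listed for MXD3 and PRELID1 were close in size, at 6076, 5323 and 5540 for MXD3 and 6768, 5960 and 5886 for PRELID1 in siCtrl. In siBAP18 they were 7531, 7145 and 6059 for MXD3 and 9347, 8568 and 7339 for PRELID1. Both genes had their 2 highest counts in siBAP18 replicates 1 and 2, which also had the most total counts (53996860 and 56548620). These counts are not scaled for depth, and in TMM-scaled CPM MXD3 was highest in siBAP18 replicate 3, at 149.5. If PRELID1 reads covered its exons evenly, 4180, 3681 and 3635 of them would lie in the shared exons in siCtrl and 5773, 5292 and 4533 in siBAP18. MXD3 less these reads came to 35.3, 35.7 and 40.4 CPM of the library total in siCtrl and 32.6, 32.8 and 36.3 in siBAP18, which overlap and are not higher in the knockdown. The libraries were made strand-specific, but the use of strand in counting is not given in the sources used here. In the same table, 93 genes lying wholly inside the exons of a gene on the opposite strand had a median read density of 0.582 of that of the surrounding gene, against 0.214 for 21 such genes on the same strand. The part of PRELID1 reads in the rise of MXD3 was not tested.

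**Figure D2:**
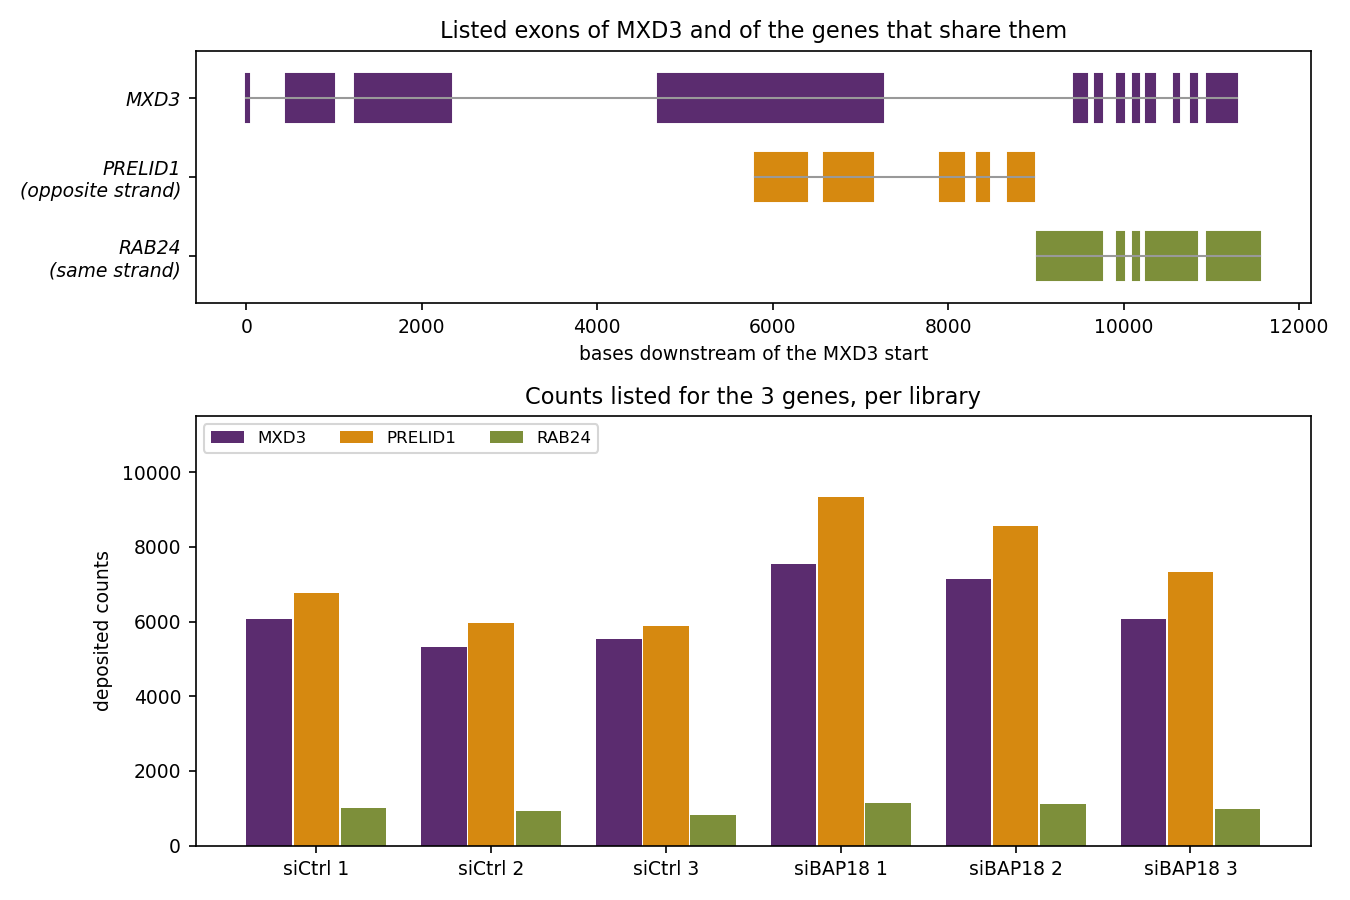
Top, exons listed for MXD3, PRELID1 and RAB24, in bases downstream of the MXD3 start. Bottom, deposited counts (vertical axis, not scaled for depth) of the 3 genes in each of the 6 libraries, where MXD3 and PRELID1 were both highest in siBAP18 replicate 1, at 7531 and 9347 counts.

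MNT, a widely expressed antagonist that pairs with MAX and MLX, lies at chr17:2384060-2401118. It was at 36.1, 39.7 and 36.5 CPM in siCtrl and at 32.3, 35.4 and 33.1 CPM in siBAP18. The groups did not overlap, yet the log2 fold change of −0.15 (95% interval −0.30 to −0.0080) had an adjusted p = 0.0745 by edgeR and did not pass. It passed without siBAP18 replicate 2 (−0.19, edgeR adjusted p = 0.0221) and with the GC content and length offset (−0.23, edgeR adjusted p = 0.00352), while with the length offset alone the estimate shrank to −0.037 (edgeR adjusted p = 0.679). All 1065 bases of RP1-59D14.1, on the opposite strand, lie within MNT exons, with 68 to 140 counts listed for it per library.

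MLX, the center of the parallel branch, lies at chr17:42567068-42573239 and was at 89.1, 85.2 and 87.5 CPM in siCtrl and at 95.5, 86.4 and 96.3 CPM in siBAP18. The groups overlapped, and the log2 fold change was 0.09 (95% interval −0.05 to 0.23, edgeR adjusted p = 0.297). MLX shares 770 of its 4259 bases (18.1%) with PSMC3IP on the opposite strand, a recombination factor that fell (log2 fold change −0.71, edgeR adjusted p = 6.18e-09). Even coverage of PSMC3IP would place 850 to 959 of its reads in the shared bases in siCtrl and 410 to 681 in siBAP18, beside 3902 to 5199 counts listed for MLX. The part of these reads in the MLX values was not tested, so the overlap of the groups holds for the listed counts only.

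Levels of different genes were compared per length, as the deposited RPKM (reads per kilobase of listed gene length, scaled to the library total). In siCtrl the order was MXD3 at 22.4, MLX at 20.4, MYC at 18.8, MAX at 14.3, MXD4 at 6.42, MNT at 4.28, MXI1 at 3.85, MXD1 at 1.67, MYCL at 0.511 and MYCN at 0.0204 RPKM. Only MNT and MXI1 overlapped among neighbors in this order. In siBAP18 the same order held by mean, with MXD3 at 26.5, MLX at 21.8, MYC at 18.5, MAX at 17.4, MXD4 at 7.53, MNT at 3.86, MXI1 at 2.74, MXD1 at 2.40, MYCL at 0.257 and MYCN at 0.0307 RPKM. There, MYC overlapped MAX and MXI1 overlapped MXD1. The position of MXD3 includes the exons it shares with PRELID1, and that of MXD1 includes the bases it shares with SNRNP27.

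The balance of partners was described by summed RPKM, with no test. MAX relative to MYC was 0.756, 0.741 and 0.791 in siCtrl and 0.851, 0.926 and 1.07 in siBAP18, higher in each knockdown library than in each control. The 5 antagonists MXD1, MXD3, MXD4, MXI1 and MNT together were 2.06 ± 0.027 times the MYC level in siCtrl and 2.35 ± 0.287 times in siBAP18 (SD, n = 3). MXD3 supplied 58.0% ± 1.26 of that sum in siCtrl and 61.5% ± 2.24 in siBAP18, with the exons it shares with PRELID1 included. Without MXD3 the ratio was 0.865 ± 0.017 in siCtrl and 0.899 ± 0.076 in siBAP18, and the groups overlapped. The sum over all members was 92.7 ± 0.932 RPKM in siCtrl and 101 ± 1.72 RPKM in siBAP18. The part of PRELID1 reads in these sums was not tested.

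**Figure D3:**
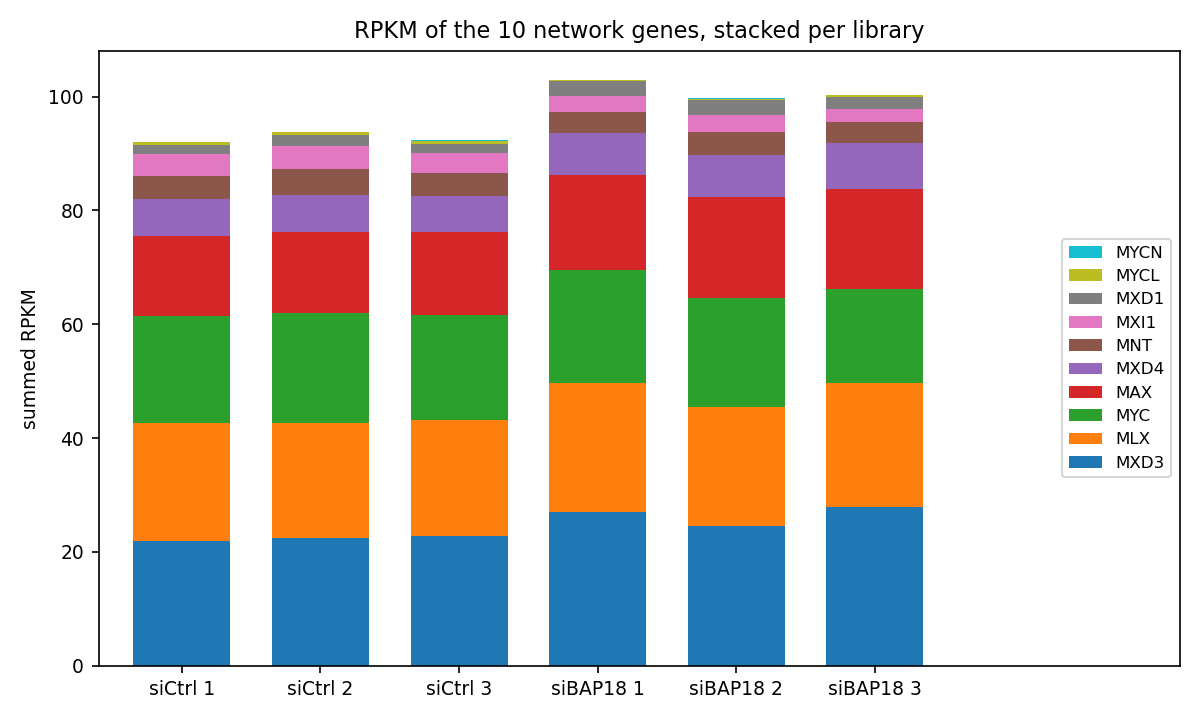
RPKM of the 10 network genes stacked for each library (vertical axis, summed RPKM). The stacks of siCtrl reach 92.0 to 93.7 RPKM and those of siBAP18 reach 99.7 to 103 RPKM, with MXD3, MLX, MYC and MAX as the largest bands. The MXD3 band includes the exons shared with PRELID1.

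Genes that bind or neighbor the network were compared next. Of 7 such genes, 6 were tested, of which 4 fell (66.7%, beside 25.1% of all genes) and 2 rose (33.3%, beside 24.5%), with a median log2 fold change of −0.34. Both glucose-sensing partners of MLX fell. MLXIP was at 115.1, 119.8 and 117.7 CPM in siCtrl and at 52.1, 49.2 and 58.3 CPM in siBAP18 (log2 fold change −1.14, SE 0.0712, edgeR adjusted p = 1.46e-12). MLXIPL was at 4.23, 3.98 and 4.19 CPM in siCtrl and at 2.00, 1.52 and 1.78 CPM in siBAP18 (log2 fold change −1.23, SE 0.153, edgeR adjusted p = 2.59e-07). The knockdown levels were 0.45 and 0.43 of the control levels. The listed MLX values of the groups overlapped, but they include bases shared with PSMC3IP, which fell.

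The 2 tested targets of MLX pairs rose, beside 24.5% of all genes tested. This list of 3 genes was chosen by hand, and it was not tested as a group. TXNIP, an arrestin-related inhibitor of glucose uptake, was at 16.4, 16.6 and 15.1 CPM in siCtrl and at 49.1, 48.1 and 40.6 CPM in siBAP18, and it rose 2.87-fold (log2 fold change 1.52, SE 0.0811, edgeR adjusted p = 8.51e-14). ARRDC4, a related arrestin domain gene, was at 8.50, 7.57 and 8.64 CPM in siCtrl and at 32.2, 32.9 and 24.4 CPM in siBAP18, and it rose 3.63-fold (log2 fold change 1.86, SE 0.1, edgeR adjusted p = 9.64e-14). Their promoters, printed above, hold the paired motif and an E-box. PKLR, a liver target of MLXIPL, had 6, 2 and 4 counts in siCtrl and 0, 0 and 2 in siBAP18 and was not tested.

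PVT1, a long noncoding RNA gene beside MYC, was at 11.5, 10.6 and 11.5 CPM in siCtrl and at 31.1, 27.7 and 29.1 CPM in siBAP18. It rose 2.62-fold (log2 fold change 1.39, SE 0.0792, edgeR adjusted p = 2.77e-13), while the values of MYC overlapped. ZBTB17, encoding MIZ1, through which MYC represses genes, rose from 29.5 ± 1.59 to 43.0 ± 3.37 CPM (log2 fold change 0.54, edgeR adjusted p = 1.39e-06). MYCBP, a MYC-binding protein, fell from 6.00 ± 0.918 to 4.36 ± 0.662 CPM (−0.46, edgeR adjusted p = 0.00585). MGA, a MAX partner of a repressive complex, fell by 0.22 on the log2 scale (edgeR adjusted p = 0.0356), although the siBAP18 value of 34.7 CPM in replicate 2 lay within the siCtrl range of 32.9 to 37.9. MYCNOS, antisense to MYCN, had 2 counts in a single siCtrl library and 0 elsewhere.

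**Figure D4:**
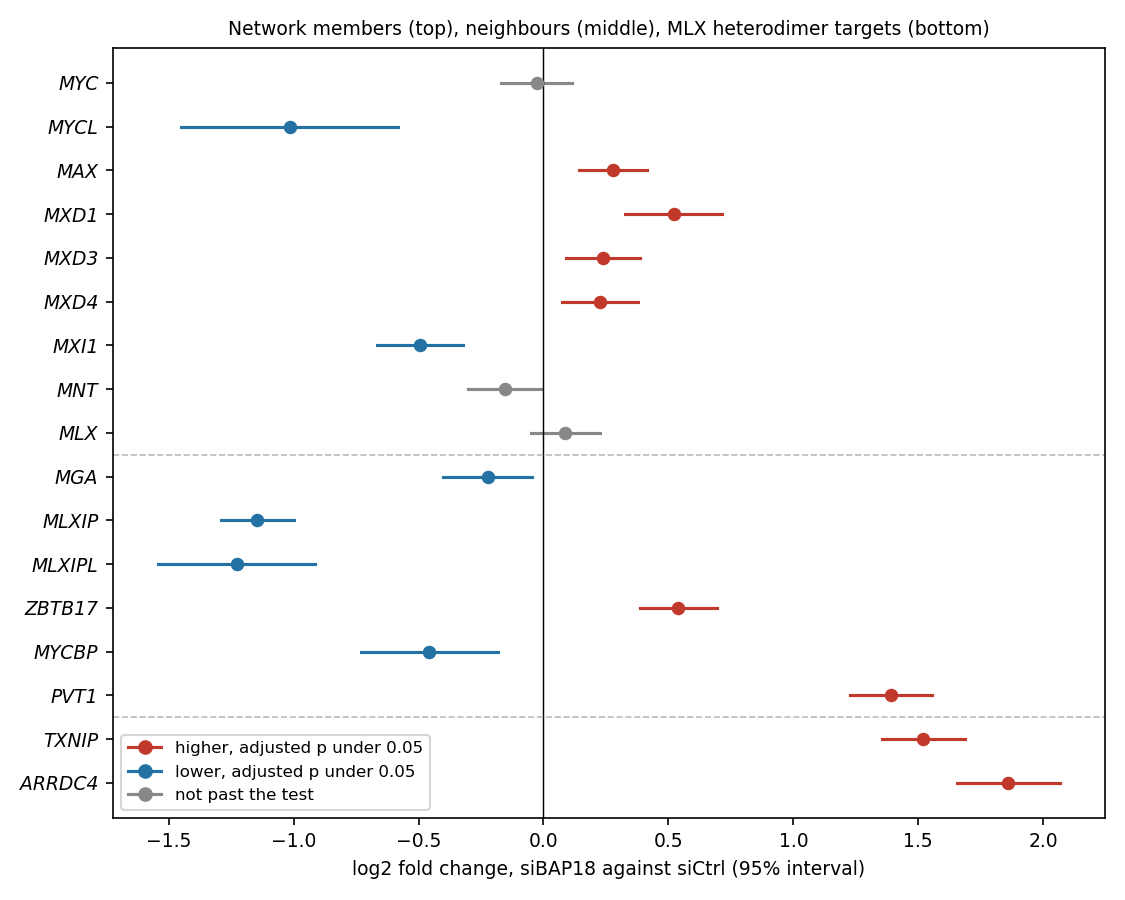
Log2 fold change of siBAP18 against siCtrl (horizontal axis) with its 95% interval for the tested members, neighbors and MLX targets, colored by the edgeR call. Intervals of MYC and MLX span 0, while those of MLXIP (−1.14) and TXNIP (1.52) lie far on opposite sides of it.

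The cofactors through which MYC activates genes were mixed. Of 17 tested, 6 rose (35.3%, beside 24.5% of all genes) and 4 fell (23.5%, beside 25.1%), with a median log2 fold change of 0.10. Those that rose included KAT5, the TIP60 acetyltransferase (0.74, adjusted p = 8.51e-09), PAF1 of the elongation complex (0.62, adjusted p = 1.53e-07), the helicase RUVBL2 (0.52, adjusted p = 2.39e-06) and the elongation kinase CDK9 (0.47, adjusted p = 1.03e-05), all by edgeR. Those that fell were LEO1 (−0.64, edgeR adjusted p = 1.27e-08) and CTR9 (−0.32), partners of PAF1 in its complex, RUVBL1 (−0.23), partner of RUVBL2, and WDR5 (−0.25), a histone methyltransferase subunit that binds MYC. Subunits of 1 complex thus passed the test in opposite directions, with PAF1 at 491 and 753 CPM and LEO1 at 179 and 115 CPM in siCtrl and siBAP18.

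The corepressors that MXD proteins and MNT recruit were also mixed. Of 13 subunits tested, 6 fell (46.2%, beside 25.1% of all genes) and 4 rose (30.8%, beside 24.5%), with a median of −0.10. Both SIN3 scaffolds passed the test in opposite directions, as SIN3A fell from a mean of 209 to 148 CPM (−0.49, edgeR adjusted p = 1.90e-06) and SIN3B rose from 17.6 to 24.9 CPM (0.50, edgeR adjusted p = 5.92e-06). The histone-binding subunits RBBP4 (−0.41) and RBBP7 (−0.38) and the corepressor NCOR1 (−0.36) fell. SAP18 (0.49, edgeR adjusted p = 6.61e-07), SAP30 (0.41) and the deacetylase HDAC1 (0.31) rose.

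Factors that set the stability of MYC protein were listed separately, since mRNA counts do not measure protein. Of 19 tested, 5 rose (26.3%, beside 24.5% of all genes) and 4 fell (21.1%, beside 25.1%), with a median of 0.06. CIP2A, which protects MYC from dephosphorylation, fell from 26.1 to 28.1 CPM in siCtrl to 11.6 to 13.2 CPM in siBAP18 (−1.11, edgeR adjusted p = 1.82e-11), and the deubiquitinase USP28 (−0.53), the ubiquitin ligase subunit SKP2 (−0.76) and the kinase AURKA (−0.36) also fell. The nucleolar deubiquitinase USP36 rose from 106 to 189 CPM (0.84, edgeR adjusted p = 6.15e-11), as did the kinase PIM1 (0.92, edgeR adjusted p = 3.59e-08), the ubiquitin ligase STUB1 (0.62) and FBXO32 (0.50). The genes that fell and those that rose each included a deubiquitinase that stabilizes MYC.

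Of 57 genes that MYC is known to activate, 56 were tested, of which 21 rose (37.5%, beside 24.5% of all genes) and 16 fell (28.6%, beside 25.1%), with a median log2 fold change of 0.06 and none over 1 in size. Those that rose included NOLC1, a nucleolar protein (0.99, edgeR adjusted p = 6.80e-11, from 164 to 327 CPM), ODC1 of polyamine synthesis (0.77), PES1 of ribosome assembly (0.76) and the translation factor EIF4A1 (0.62). Those that fell included SHMT1 of one-carbon metabolism (−0.62, edgeR adjusted p = 6.54e-08), the transferrin receptor TFRC (−0.68), the purine enzyme PAICS (−0.57) and the lactate transporter SLC16A1 (−0.55). An E-box was present in the promoters of 24 of the 46 targets with a RefSeq promoter (52.2%), against 8.77% of all genes. This share describes a list made by hand of known MYC targets and is not a result of these libraries. The 8.77% covers all genes with a promoter, whether or not they were expressed here. By direction, it was present in 8 of 15 that rose, 8 of 13 that fell and 8 of 18 that did not pass.

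Of 11 genes that MYC is known to repress, 9 were tested, of which 5 rose (55.6%, beside 24.5% of all genes) and 2 fell (22.2%, beside 25.1%), with a median of 0.27. The list is short and was chosen by hand, and it was not tested as a group. The 3 largest rises were DDIT3, a stress transcription factor, from 11.3 to 173 CPM (3.94, edgeR adjusted p = 6.54e-22), CDKN1A, the p21 cell cycle inhibitor, from 39.0 to 130 CPM (1.74, edgeR adjusted p = 7.30e-16), and GADD45A, a growth arrest gene, from 34.4 to 35.6 CPM in siCtrl to 103 to 111 CPM in siBAP18 (1.62, edgeR adjusted p = 7.31e-16). CDKN1B, another cell cycle inhibitor, rose by 0.35 on the log2 scale (edgeR adjusted p = 0.000132), while NDRG2 (−0.75) and CEBPA (−0.31) fell.

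**Figure D5:**
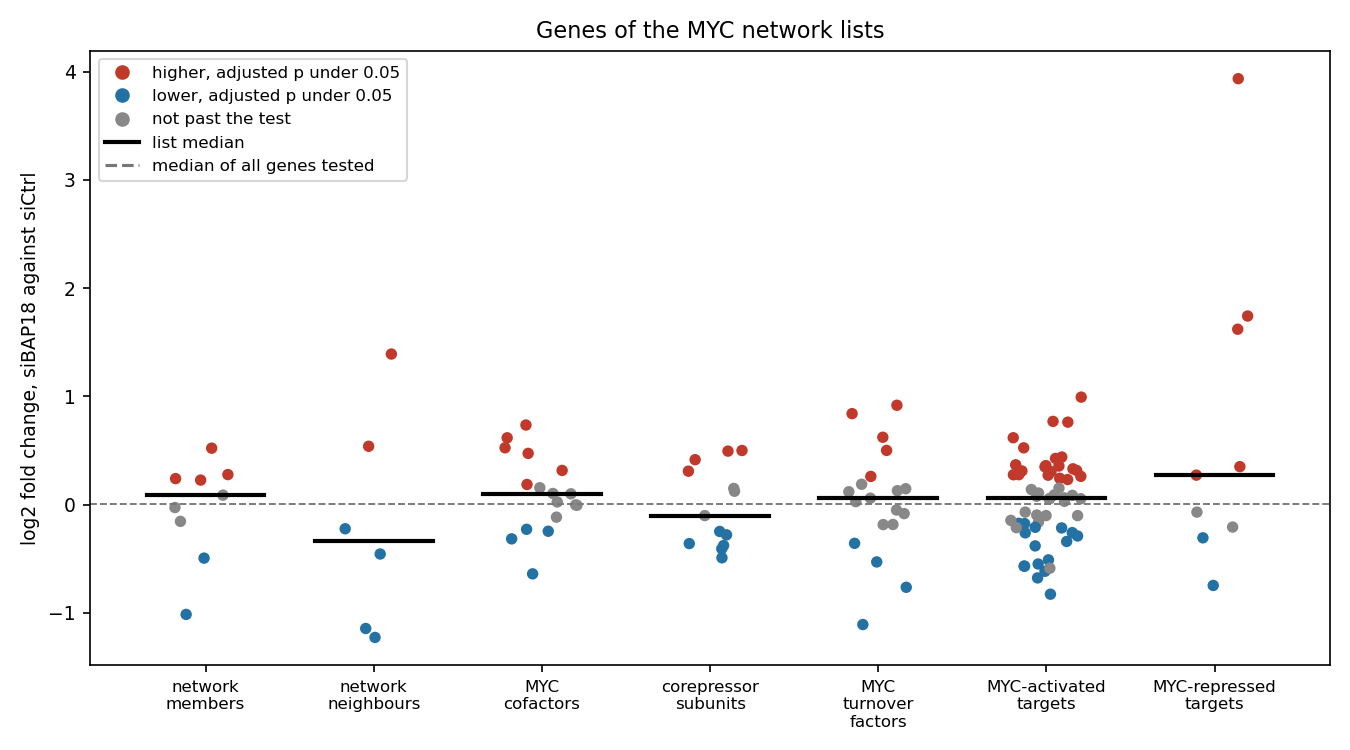
Log2 fold change of siBAP18 against siCtrl (vertical axis) for each tested gene of the network, its neighbors, cofactors, corepressors, MYC turnover factors and MYC targets. Points are genes colored by the edgeR call, and black bars are list medians, which run from −0.34 for neighbors to 0.27 for MYC-repressed targets around the median of all genes (dashed).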

How the data were processed

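RNA from 3 siCtrl and 3 siBAP18 cultures of A549 cells was made into poly(A)-selected, dUTP strand-specific libraries and sequenced as paired ends, per the labels. The authors deposited counts per gene, whole numbers without normalization, and RPKM values. The deposited RPKM equal the counts per kilobase of listed length scaled to the column total. The aligner, the counting program and its use of strand are not given in the sources used here, and the submitters' processing notes list the builds hg38 and GRCm38. Even numbers made up 77.4% of all counts from 1 to 10, so a count need not be a separate fragment. Listed spans of the members equal those of GENCODE 29.

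Counts were tested in R 4.3.3 with edgeR 4.0.16 (filterByExpr, TMM scaling, quasi-likelihood test, Benjamini-Hochberg adjustment over the 20776 genes tested). Standard errors are the log2 fold change over the square root of the F statistic. limma 3.58.1, DESeq2 1.42.0, other filters and scalings, leaving out each library, the replicate number as a block, and offsets for gene length served as alternatives, and an offset for GC content and length (GC value for 98.7% of genes) was added after seeing the data. Same-numbered libraries did not deviate together (Pearson r of residuals −0.017, 0.051 and 0.0038 across genes). No replicates were copies (chi-square over its degrees of freedom 4.17 or more in every pair). This value ran from 4.17 to 4.87 between siCtrl replicates and from 11.0 to 25.8 between siBAP18 replicates. The knockdown libraries thus differed more from each other, most of all replicates 2 and 3. The labels call the replicates biological, without saying more about the cultures, and p-values measure the spread between these libraries. The floor of 3 counts for a count of 0 covers counting error only and takes each count as a separate fragment.

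The members and the gene lists, compiled by hand from general knowledge, were chosen with earlier results of these data known. Named genes are C17orf49 and the genes of its largest overlaps, all members, neighbors, MLX targets and genes overlapping members, and MKI67. In each other list, up to 4 genes of smallest adjusted p in each direction are named. Motifs were searched with Python 3.11.15, numpy 2.4.6 and pandas 2.3.3, and plots were drawn with matplotlib 3.10.9. CIP2A is listed in the table under its older symbol. The MYC promoter was not analysed here.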

Additional observations from a re-analysis of the deposited data

How the results depend on the processing

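MAX, MXD1 and MXI1 passed the test in their direction under all 19 alternatives and MYCL under the 17 that kept it. Its estimate ranged from −1.33 to −0.27, the latter on the log2(RPKM + 1) scale, where the pseudocount exceeds its level. MXD3 passed under 18, MXD4 under 17, MNT under 3 (estimates from −0.23 to −0.037) and MYC under 1. The MLX estimate ran from −0.012 to 0.14 and never passed. The MYC estimate ran from −0.074 to 0.025 when single libraries were left out, and MXD3 from 0.17 to 0.31. The replicate numbers did not pair the libraries, and with the replicate block MNT came to −0.16 (edgeR adjusted p = 0.0427), while no other member changed its call. Requiring an absolute log2 fold change over 1 as well left 981 genes higher and 777 lower over all genes, 0 members higher and 1 lower, 1 neighbor higher and 2 lower, 0 turnover factors higher and 1 lower, and 3 MYC-repressed targets higher and 0 lower. It left 0 higher and 0 lower among the cofactors, the corepressors and the MYC-activated targets. With the length offset, 8 turnover factors rose. By limma on log2(RPKM + 1) without a filter, 10 MYC-activated targets, 1 MYC-repressed target and 2 neighbors fell. Among genes averaging 0.5 RPKM or more, limma with a pseudocount of 1 or 0.1 found 1 member lower, since MYCL was filtered out. With the GC content and length offset, 4 members fell (MYC, MYCL, MXI1 and MNT); the cause was not tested. Leaving out single libraries gave 1 to 2 MYC-repressed targets lower, with 1 without siCtrl replicate 1 or 3 or siBAP18 replicate 1 or 2. MYCN, MYCNOS and PKLR are limited by depth.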
